A study of Mus musculus with 24 samples.

Results

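The members described here are 10 endothelial cell genes, followed through whole visceral fat of mice in which regulatory T cells lacked Pparg or T-bet. They were taken by symbol from the table of raw counts and were Pecam1, Cdh5, Esam, Emcn, Kdr, Flt1, Tie1, Tek, Vwf and Sox17, 10 of the 27179 genes in that table. All 10 were found and all 10 passed the filter on low counts, which kept 17824 genes for testing. The tissue was visceral, perigonadal fat of male and female mice aged 27 to 33 weeks, and total RNA of the whole tissue was sequenced. The libraries fell into 6 groups of 4 each. Pparg knockout males and females carried the genotype written PpargFoxp3cre, in which Cre recombinase made from the Foxp3 locus of regulatory T cells acts on Pparg, a nuclear receptor for fatty acids. Tbet knockout males and females carried TbetFoxp3cre, in which the same Cre acts on the gene of T-bet, a transcription factor of type 1 lymphocytes. Control males and females carried Foxp3cre, so that the Cre was common to all 6 groups. Foxp3 is a gene of regulatory T cells, so the deletions were aimed at those cells and not at endothelium. Per the titles, each group held 2 libraries of batch 1 (replicates 1 and 3) and 2 of batch 2 (replicates 2 and 4); what a batch was is not given. The labels do not say whether each library is its own animal. The p-values here therefore cover only the spread from library to library, which may be technical.

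Endothelial cells line every blood vessel, and in fat the capillaries lie around each adipocyte and carry fatty acids and glucose to it. Growth of fat depends on vascular endothelial growth factors, which act through the receptors Flt1 and Kdr, and on angiopoietins, which act through the receptor Tek and its partner Tie1. Neighbouring endothelial cells are held together by Cdh5, Pecam1 and Esam, adhesion molecules of the cell junction. Emcn is a sialomucin of capillary and venous endothelium, Vwf is the clotting factor that endothelial cells store in Weibel-Palade bodies, and Sox17 is a transcription factor of arterial endothelium. Some of the genes are not made by endothelium alone: megakaryocytes make Vwf, platelets and many leukocytes carry Pecam1, and Sox17 is also made by epithelia of the female reproductive tract. In whole tissue, fewer endothelial cells and less RNA in each of them cannot be told apart.

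RefSeq places the members on 8 mouse chromosomes of build GRCm38.p6, and the spans given here run from the start to the end of the gene with its introns. Pecam1 (Entrez 18613) lies at chr11:106654213-106715281, Cdh5 (12562) at chr8:104101613-104144504 and Esam (69524) at chr9:37528089-37538319. Kdr (16542) lies at chr5:75932827-75979072 and Flt1 (14254) on the same chromosome at chr5:147561604-147726438. Tek (21687) and Tie1 (21846) also share a chromosome, at chr4:94739086-94874976 and chr4:118471191-118489849. Emcn (59308) lies at chr3:137341062-137431069, Vwf (22371) at chr6:125552948-125686679 and Sox17 (20671) at chr1:4490928-4497426. In the GENCODE annotation no exon of a member overlapped another gene.

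The start regions of the 4 receptor genes are printed because the receptors of 1 ligand family moved together between libraries while Tie1 moved against the other 3 between batches, as described below. Windows were matched for 5 of the 10 members. Each sequence is from RefSeq on GRCm38.p6 and runs 5′ to 3′ on the strand of the gene, from 250 bases before the start in the RefSeq promoter table to 50 bases after it; for Kdr, Flt1 and Tek that start lies inside the span given above. Capitals mark GGAA on either strand (read as TTCC on the printed one), the core letters that ETS transcription factors such as Erg and Fli1 bind. The windows are chr5:75978406-75978705 on the minus strand for Kdr, chr5:147725962-147726261 on the minus strand for Flt1, chr4:94739039-94739338 on the plus strand for Tek and chr4:118489800-118490099 on the minus strand for Tie1.
Kdr: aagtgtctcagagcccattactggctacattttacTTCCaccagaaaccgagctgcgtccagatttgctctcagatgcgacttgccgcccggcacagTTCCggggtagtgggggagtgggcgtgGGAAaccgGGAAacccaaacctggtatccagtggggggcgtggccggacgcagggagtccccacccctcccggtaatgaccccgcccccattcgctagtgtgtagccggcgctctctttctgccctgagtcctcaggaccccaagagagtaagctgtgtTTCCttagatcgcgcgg
Flt1: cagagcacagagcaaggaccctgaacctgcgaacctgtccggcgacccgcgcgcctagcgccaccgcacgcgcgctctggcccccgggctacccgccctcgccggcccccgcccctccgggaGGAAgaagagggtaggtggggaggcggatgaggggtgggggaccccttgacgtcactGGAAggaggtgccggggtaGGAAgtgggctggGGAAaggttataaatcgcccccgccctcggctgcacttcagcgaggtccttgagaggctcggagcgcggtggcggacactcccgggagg
Tek: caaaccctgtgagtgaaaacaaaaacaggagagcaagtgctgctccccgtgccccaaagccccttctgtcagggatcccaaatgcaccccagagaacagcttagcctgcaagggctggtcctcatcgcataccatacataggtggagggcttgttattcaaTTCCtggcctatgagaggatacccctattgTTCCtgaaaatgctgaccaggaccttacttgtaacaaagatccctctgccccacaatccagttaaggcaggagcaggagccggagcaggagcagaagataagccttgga
Tie1: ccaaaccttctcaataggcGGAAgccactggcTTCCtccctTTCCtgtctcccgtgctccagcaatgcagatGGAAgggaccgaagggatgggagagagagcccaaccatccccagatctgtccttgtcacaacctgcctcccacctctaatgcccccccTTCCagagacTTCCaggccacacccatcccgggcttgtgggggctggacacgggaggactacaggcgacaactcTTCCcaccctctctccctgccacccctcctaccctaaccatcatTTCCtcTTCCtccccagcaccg

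The Tie1 window held 9 such sites, that of Kdr 5, that of Flt1 4 and that of Tek 2. Of 32544 RefSeq promoter windows of the same length, 95.956% held at least 1 and the median was 3, so the letters are common and their presence is only a description. The longer motif AGGAAG, which contains the core, had 2 sites in the Flt1 window, 2 in that of Tie1, 0 in the other windows printed, and in 35.134% of all windows. CCGGAA, which also contains the core, had 1 site in the Kdr window and was found in 14.983% of all windows.

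Library totals ran from 8345575 to 31022845 counts, and the 10 members took from 0.0846% to 0.218% of them. The smallest count of any member in any library was 364, so none of them was near the limit of detection. Xist was at most 23.3 CPM (counts relative to the library total, scaled by TMM) in the 12 male libraries and at 548 to 1147 CPM in the female ones, and Ddx3y was at 87.7 CPM or more in males and at most 0.466 CPM in females, as labelled. Foxp3 reached at most 1.51 CPM and Tbx21 at most 2.65 CPM, so whole fat does not check the deletions in regulatory T cells. Control female replicate 1 stood apart: 16 genes of epididymal and other ductal epithelium summed to 1367 CPM in it, against 15.6, 38.0 and 27.1 CPM in the other control females. Its title puts it in batch 1 and its source name in batch 2. In counts it lay nearer to control female replicate 3, of batch 1 (chi-square per gene 151), than to replicates 4 (326) and 2 (349), of batch 2. The title was followed. Some results are given with and without it, and the others only with it.

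Compared per length, as FPKM back-transformed from the authors' log2 values, the junction molecules were the most abundant members. Median FPKM over the 24 libraries were 102 for Pecam1, 78.4 for Cdh5 and 65.4 for Esam. The receptors followed with 41.8 for Kdr and 34.7 for Tie1, and then Emcn with 33.0. Tek had a median of 19.4 FPKM, Flt1 17.2 FPKM, Sox17 13.0 FPKM and Vwf 12.2 FPKM. Neighbours in this order had overlapping ranges over the libraries, so that only distant members were separated by their spread. The most variable was Sox17, with an 8.35-fold range of FPKM, and the least variable was Emcn, with a 2.45-fold range. The place of Sox17 rested on control female replicate 1: over the other 23 libraries its range was 2.25-fold, the smallest of the 10, and the largest was that of Cdh5 at 5.08-fold.

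**Figure D1:**
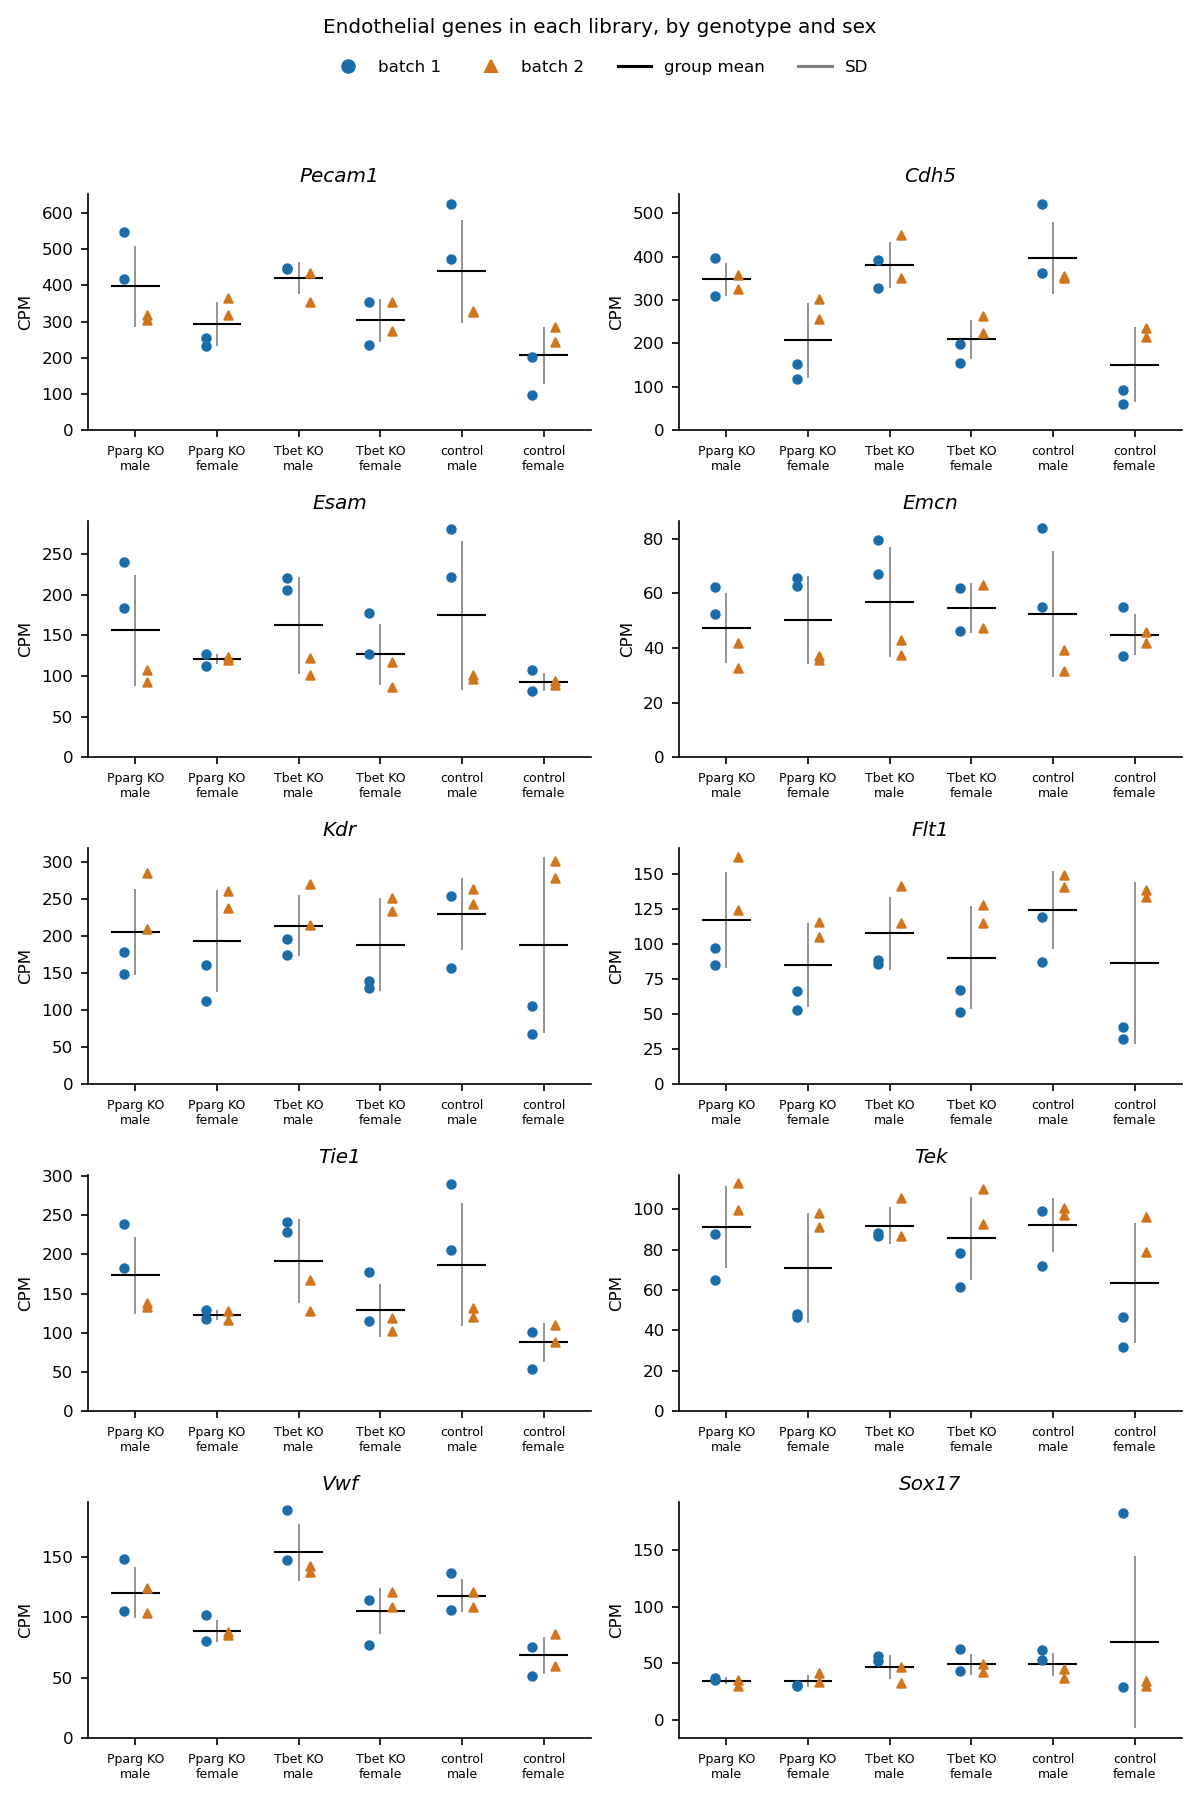
CPM of each of the 10 members in the 24 libraries, by genotype and sex; circles are batch 1 libraries, triangles batch 2 libraries, horizontal bars group means and vertical lines the SD of 4 libraries. Cdh5 was at 310 to 521 CPM in males, above every female library, which lay between 61.6 and 302 CPM, and the single Sox17 library at 183 CPM was control female replicate 1.

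The first question was whether loss of Pparg or T-bet in regulatory T cells changed the endothelial genes of fat. In males the group means of the knockouts lay close to those of controls. Cdh5 averaged 348 ± 38.6 CPM in Pparg knockout males and 380.3 ± 53.6 CPM in Tbet knockout males, against 397 ± 82.8 CPM in control males (SD, n = 4 each, as for all group means here). Pecam1 averaged 398 ± 112 CPM in Pparg knockout males and 421 ± 43.9 CPM in Tbet knockout males, against 439 ± 142 CPM in control males. In edgeR's quasi-likelihood test with Benjamini-Hochberg adjustment over all genes tested and a call at an adjusted p under 0.05, 0 of the 10 members were called in Pparg knockout males, where 0% of all genes were called. At an unadjusted p under 0.05 the count was 0 there as well, against 2.54% of all genes tested. The median log2 fold change of the members was −0.13, against −0.0049 over all genes tested, and 1 of 10 was above 0. In Tbet knockout males 0 of 10 were called, where 0.00561% of all genes were called, and 1 had an unadjusted p under 0.05, as did 4.36% of all genes. The median there was −0.06, against −0.01 over all genes tested. DESeq2, limma on the log2 FPKM values and voom with quality weights also called 0 members in both comparisons of males.

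The single member under an unadjusted 0.05 in Tbet knockout males was Vwf, the clotting factor. It had 188, 142, 148 and 137 CPM in Tbet knockout males, against 106, 121, 136 and 108 CPM in control males, in the order of replicates 1 to 4. Overlap of groups was not counted over all genes in this comparison. For Vwf every Tbet knockout male was above every control male, the lowest at 137.0 and the highest control at 136 CPM. The log2 fold change was 0.38 (SE 0.17) with an adjusted p of 1 in edgeR.

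In females 9 of the 10 members had a log2 fold change above 0 in both knockouts, but none was called. For Tie1 and Esam every Pparg knockout female was above every control female, a trait not counted over all genes. In Pparg knockout females Cdh5 averaged 207 ± 85.8 CPM, and in Tbet knockout females 210.1 ± 45.0 CPM, against 151 ± 87.3 CPM in control females. The average of Pecam1 was 294 ± 60.3 CPM in Pparg knockout and 304 ± 59.1 CPM in Tbet knockout females, against 207 ± 79.7 CPM in control females. In Pparg knockout females edgeR called 0 of 10, where 0.0168% of all genes were called, 2 had an unadjusted p under 0.05 (11.9% of all genes), and DESeq2, limma on log2 FPKM and voom called 0. The members' median log2 fold change was 0.28, against −0.02 over all genes tested. In Tbet knockout females edgeR called 0 of 10, where 1.22% of all genes were called, and 2 had an unadjusted p under 0.05 (17.3% of all genes). Their median was 0.44, against −0.04 over all genes tested. The same control females serve both comparisons, so the likeness of these values is not independent. Genes of other cells also had medians away from 0 in these comparisons, with 0 of them called by edgeR. Macrophage genes had medians of 0.76 in Pparg knockout females and 0.78 in Tbet knockout females, with 10 of 10 above 0 in both, and summed to 676 to 2415 CPM in Pparg knockout females and 1141 to 1653 CPM in Tbet knockout females, against 347 to 1066 CPM in control females. Lymphocyte genes had a median of 1.08 in Pparg knockout females (10 of 10 above 0) and of 0.84 in Tbet knockout females (9 of 10), with sums of 42.8 to 107 CPM and of 36.5 to 77.8 CPM in those groups, against 22.4 to 41.8 CPM in control females. Ductal epithelium genes had a median of −2.39 in Pparg knockout females and of −5.16 in Tbet knockout females, with 1 of the 10 tested above 0 in both; their sums were 32.9 to 297 CPM and 25.3 to 82.7 CPM in those groups, against 15.6 to 1367 CPM in control females. The part of these cells in the endothelial values was not tested. Without control female replicate 1 the members' medians were 0.17 in Pparg knockout females and 0.29 in Tbet knockout females.

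Vwf came nearest to a call in Tbet knockout females. It had 77.4, 108, 115 and 121 CPM in Tbet knockout females, against 51.6, 60.0, 75.8 and 86.2 CPM in control females. Tbet replicate 1 lay among the controls and the other 3 lay above all of them. The log2 fold change was 0.62 (SE 0.17) with an adjusted p of 0.0793 in edgeR. DESeq2 put the adjusted p at 0.0120 and limma on log2 FPKM at 0.0486, so the call turns on the tool. Tek, the angiopoietin receptor, was next at 0.49 on the log2 scale (SE 0.20, adjusted p = 0.201).

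Sox17 was the member with the opposite sign in both knockouts of females, and the sign turned on 1 library. The Pparg knockout females had 29.8, 41.5, 31.3 and 33.8 CPM and the Tbet knockout females 43.2, 42.4, 62.5 and 49.1 CPM, against 183, 30.3, 29.5 and 34.0 CPM in control females. All 8 knockout females lay between 29.8 and 62.5 CPM, and control female replicate 1 was far above every other library. The log2 fold change of Sox17 in Tbet knockout females was −0.38 (SE 0.39, adjusted p = 0.667) and became 0.63 (adjusted p = 0.110) without that library.

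Of the other endothelial genes, which were listed by vessel type with earlier results of these data known, only the venous and ligand lists held calls in the knockouts. In Tbet knockout females 2 of 8 venous genes rose. Lrg1, a secreted glycoprotein, averaged 160.3 ± 87.6 CPM in Tbet knockout females and 45.1 ± 23.6 CPM in control females (log2 fold change 1.62, SE 0.37, adjusted p = 0.0413). Whole fat does not show which cells made it. Ephb4, the ephrin receptor of veins, averaged 80.4 ± 15.4 CPM in Tbet knockout females and 55.4 ± 12.9 CPM in control females (log2 fold change 0.55, SE 0.13, adjusted p = 0.0413). Among 16 angiogenic ligands and cofactors Svep1, a matrix protein that binds the Tie1 receptor, averaged 146 ± 21.3 CPM in Tbet knockout females and 50.4 ± 28.5 CPM in control females (log2 fold change 1.73, SE 0.30, adjusted p = 0.00805). The calls of Lrg1 and Ephb4 were each lost in 14 of the 24 fits that left out 1 library, and that of Svep1 in 0. The lowest Svep1 value in Tbet knockout females was 129 CPM and the highest in control females 79.6 CPM. By edgeR, 0 genes of the other pan-endothelial (22), capillary (10), arterial (10), lymphatic (8) and junction partner (13) lists were called in any of the 4 comparisons of a knockout with its controls. At an unadjusted p under 0.05 in Tbet knockout females there were 10 other pan-endothelial, 5 arterial, 2 capillary, 2 junction partner and 0 lymphatic genes, where 17.3% of all genes were under it.

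**Figure D2:**
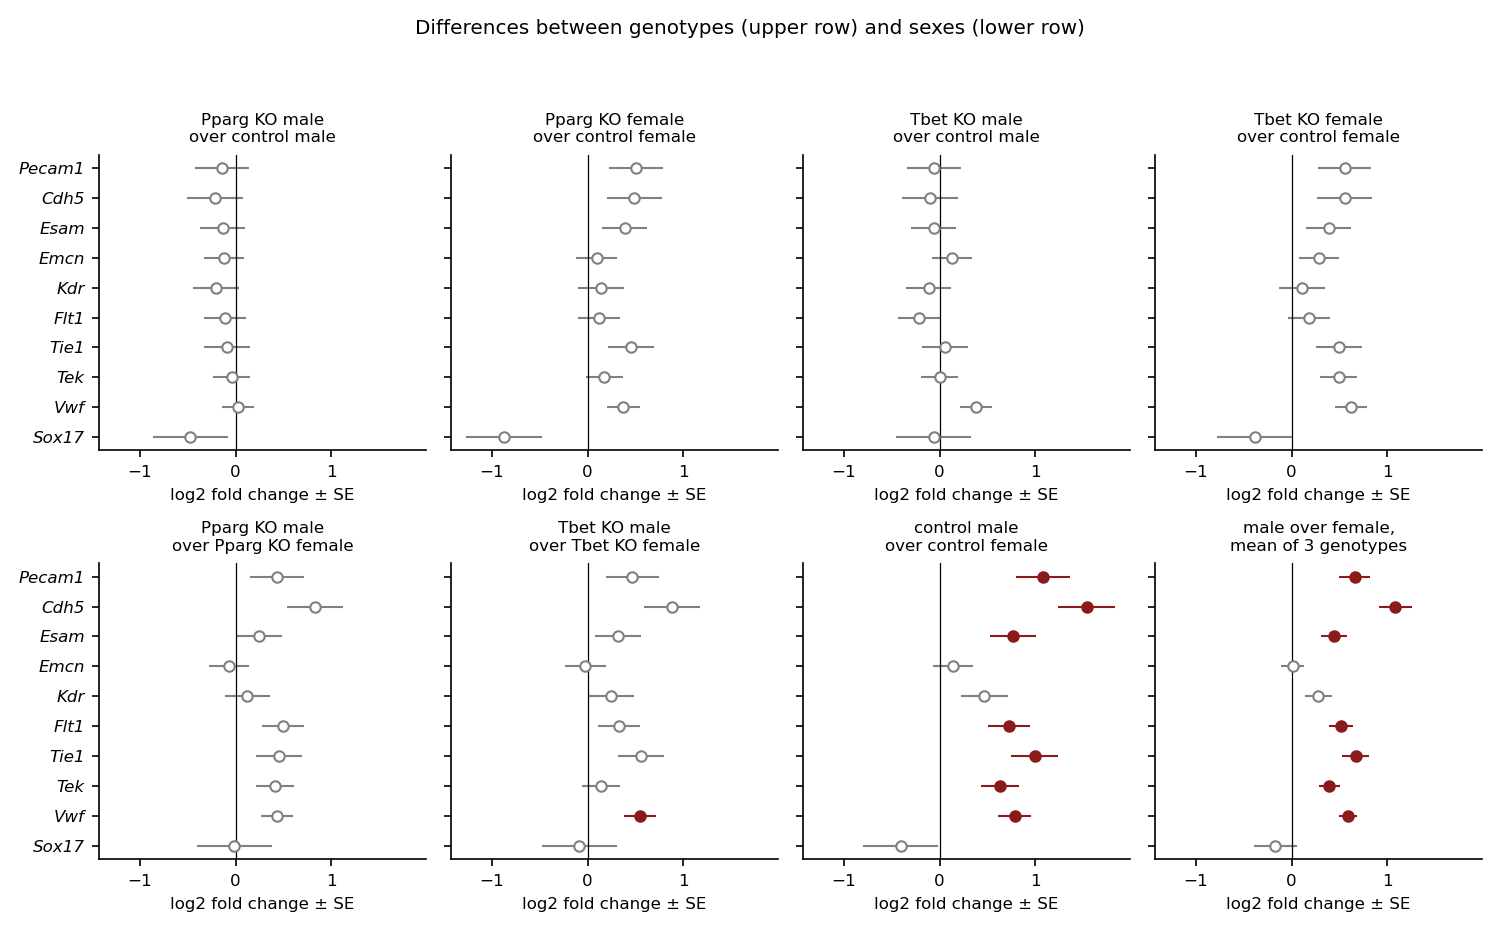
Log2 fold change of each member with its SE in edgeR; the upper row sets each knockout against its controls and the lower row males against females, with filled points for an adjusted p under 0.05. No point is filled in the upper row, 7 are filled in control males over control females, and Vwf alone is filled in Tbet knockout males over females.

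The second question was whether the sexes differed. In controls they did: 7 of the 10 members were higher in males, among them all 3 junction molecules, 3 of the 4 receptors and Vwf. Across all genes tested 13.6% were called higher in control males. The members' median log2 fold change was 0.75, against −0.04 over all genes tested. In 4 members every control male was above every control female, which held for 7.84% of all genes tested. DESeq2 and limma on log2 FPKM also called 7 members, but voom with quality weights called 2, a fit with no batch term 4 and batch 2 alone 2. The shares of all genes called in those fits are not given here, so a lower count may not be particular to the members.

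Cdh5, the cadherin of the endothelial junction, differed most. It had 362, 354, 521 and 351 CPM in control males, against 61.6, 237, 92.4 and 215 CPM in control females. The groups did not overlap, and the 2 batch 1 females were well below the 2 of batch 2. The fold was 2.90 (log2 1.54, SE 0.30, adjusted p = 0.00139). Pecam1, the platelet and endothelial adhesion molecule, had 472, 328, 626 and 329 CPM in control males and 98.4, 243, 201 and 284 CPM in control females. These groups did not overlap either, with a fold of 2.11 (log2 1.08, SE 0.28, adjusted p = 0.00944).

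Tie1, the partner receptor of Tek, had 206, 132, 289 and 120.0 CPM in control males and 53.4, 88.0, 101 and 110.3 CPM in control females, all males above all females, and a fold of 1.99 (log2 0.99, SE 0.24, adjusted p = 0.00625). Vwf had 106, 121, 136 and 108 CPM in control males, against 51.6, 60.0, 75.8 and 86.2 CPM in control females, again without overlap, and a fold of 1.72 (log2 0.78, SE 0.17, adjusted p = 0.00269). Both kept their call when any one of the 24 libraries was left out, as did Cdh5 and Pecam1.

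The other 3 called members overlapped between the sexes. Esam, the junction molecule of the immunoglobulin family, had 221, 96.0, 281 and 101 CPM in control males and 81.5, 88.6, 107 and 94.2 CPM in control females. The 2 males of batch 1 were above every female, and the 2 of batch 2 lay among the females. Its log2 fold change was 0.77 (SE 0.24, adjusted p = 0.0225). Flt1, the receptor that binds growth factor without strong signalling, had 87.0, 140.2, 119 and 149 CPM in control males and 31.9, 133, 40.9 and 139 CPM in control females (log2 fold change 0.73, SE 0.22, adjusted p = 0.0208). Tek had 72.1, 101, 99.1 and 97.0 CPM in control males and 31.7, 79.0, 46.7 and 96.4 CPM in control females (log2 fold change 0.63, SE 0.20, adjusted p = 0.0225). In both receptors the 2 females of batch 1 were low and those of batch 2 were at or near the level of the males. Esam, Flt1 and Tek lost their call without control female replicate 1, where 5 members were called, without control female replicate 3 or without control male replicate 3, where 4 were. Without replicate 1 the log2 fold changes were 0.61 for Esam, 0.52 for Flt1 and 0.46 for Tek.

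Kdr, the main signalling receptor for the growth factors, was not called. It had 158, 244, 255 and 264 CPM in control males, against 68.4, 302, 105 and 279 CPM in control females, and the 2 batch 2 females were above every male. The log2 fold change was 0.47 (SE 0.24, adjusted p = 0.156). Emcn averaged 52.4 ± 23.1 CPM in control males and 44.9 ± 7.59 CPM in control females, and its log2 fold change was 0.14 (SE 0.21) at an adjusted p of 0.654.

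Sox17, the arterial factor, changed sides with 1 library. It had 52.9, 44.7, 61.4 and 37.2 CPM in control males, against 183, 30.3, 29.5 and 34.0 CPM in control females. All males were above 3 of the females and below the other. With all libraries the log2 fold change was −0.41 (SE 0.39, adjusted p = 0.462). Without control female replicate 1 it was 0.61 with an adjusted p of 0.0189, so that Sox17 was then called higher in males.

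Control female replicate 1 had the lowest value of all 24 libraries in 8 members, while Sox17 was highest in it. Its ductal epithelium genes included Foxj1, the factor of ciliated cells, at 376 CPM, Krt18 at 232 CPM, Cldn3 at 184 CPM and Epcam at 148 CPM. Crisp1, Lcn5, Lcn9 and Adam7, which mark the epididymis, had 0 counts in it. The sums of the 16 genes ran from 4.85 to 5114 CPM in the other libraries, the highest being Tbet knockout male replicate 4 with 3005 CPM of Crisp1. Over the 24 libraries, with group and batch means removed, log2 Sox17 correlated with the log2 sum at r = 0.33, and at r = −0.47 over the 23 libraries without control female replicate 1. The other 9 members had r between −0.66 and −0.27 over 24 libraries, and between −0.50 and −0.037 over the 23. These points share library and depth, and the part of this tissue in Sox17 was not tested. A sex difference that varied with batch, described below, was not removed from them. When the 9 libraries with a sum over 100 CPM were left out, a choice made after the data were seen, 7 members were called higher in control males, where 12.7% of all genes were called higher. Of these, 6 were among the 7 called with all libraries. Vwf was no longer called (adjusted p = 0.0676), and Sox17 was called at a log2 fold change of 0.87 (adjusted p = 0.00758). The control males left were replicates 1 and 3, both of batch 1, while the control females left included replicates 2 and 4 of batch 2. The sex difference was larger in batch 1, as described below, and the batch term does not remove that. These calls therefore cannot be set apart from batch.

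**Figure D3:**
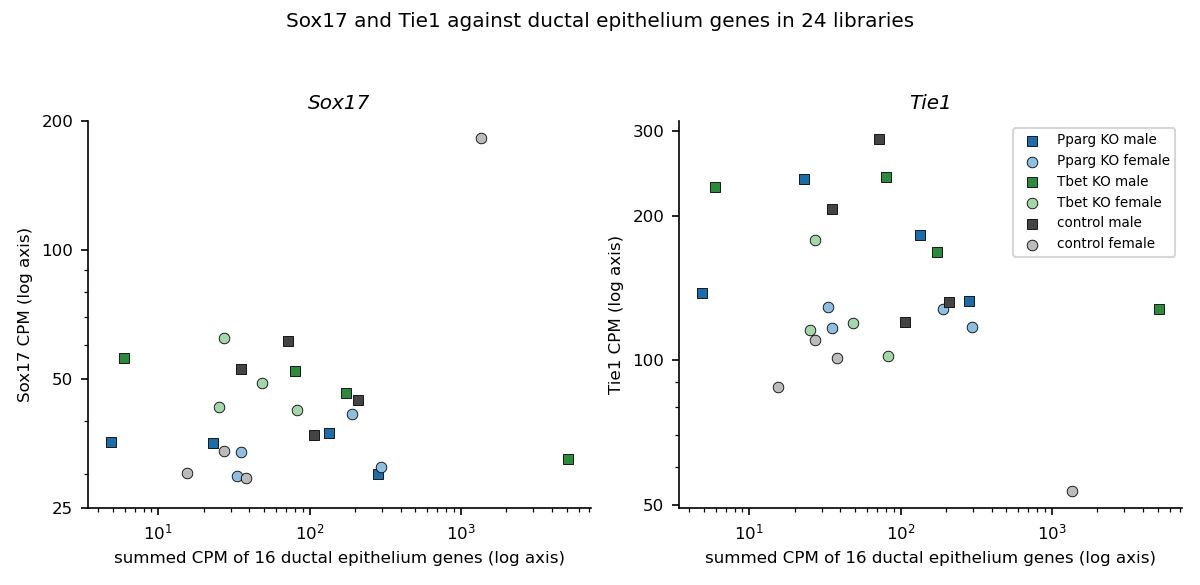
CPM of Sox17 (left) and Tie1 (right) against the summed CPM of 16 ductal epithelium genes in the 24 libraries, both axes logarithmic; squares are males, circles females, colours genotypes. Control female replicate 1, at a sum of 1367 CPM, was highest for Sox17 (183 CPM) and lowest for Tie1 (53.4 CPM).

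Within each knockout, 8 of the 10 members had a log2 fold change above 0 in males over females; those of Emcn and Sox17 were below 0. In Pparg knockouts edgeR called 0 of 10 members between males and females, where 8.77% of all genes were called, and 4 had an unadjusted p under 0.05, as did 26.5% of all genes. DESeq2, limma on log2 FPKM, voom and a fit with a batch term for each sex each called 1, and batch 1 alone 2. The members' median log2 fold change was 0.42, against 0.01 over all genes tested. Cdh5 had 309.6, 358, 397 and 326 CPM in Pparg knockout males, against 119, 302, 152 and 256 CPM in Pparg knockout females. Every male was above every female, as for Vwf and Tie1, a trait not counted over all genes. The log2 fold change of Cdh5 was 0.83 (SE 0.29, adjusted p = 0.0789).

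In Tbet knockouts 1 member, Vwf, was called higher in males, where 3.93% of all genes were called higher. It had 188, 142, 148 and 137 CPM in Tbet knockout males, against 77.4, 108, 115 and 121 CPM in Tbet knockout females. The groups did not overlap, and the log2 fold change was 0.55 (SE 0.17, adjusted p = 0.0476). This call was lost in 18 of the 24 fits that left out 1 library, and a fit with a batch term for each sex called 2 members. Cdh5 had 328, 450.2, 392 and 351 CPM in Tbet knockout males and 155, 224, 199 and 263 CPM in Tbet knockout females. These groups did not overlap either (log2 fold change 0.88, SE 0.29, adjusted p = 0.0631). Neither did those of Pecam1, and overlap was not counted over all genes in this comparison.

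Whether a knockout acted differently in the sexes was tested directly. The effect of the Pparg knockout in males minus that in females was called in 0 of 10 members, where 0% of all genes were called. For Tbet it was called in 0 of 10, where 0.00561% of all genes were called. In both tests 0 members had an unadjusted p under 0.05 (6.14% of all genes for Pparg and 11.5% for Tbet), and DESeq2, limma on log2 FPKM and voom called 0. The largest differences were in Cdh5, −0.70 on the log2 scale for Pparg (SE 0.41, adjusted p = 0.812) and −0.65 for Tbet (SE 0.41, adjusted p = 0.549). With these errors the data do not show that the sexes differed by the same amount in all genotypes.

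Averaged over the 3 genotypes, a comparison added after the data were seen, 7 members were higher in males, where 21.9% of all genes were called higher. They were Cdh5 (log2 fold change 1.08, SE 0.17), Tie1 (0.67, SE 0.14), Pecam1 (0.66, SE 0.16), Vwf (0.59, SE 0.10), Flt1 (0.52, SE 0.13), Esam (0.44, SE 0.14) and Tek (0.39, SE 0.11), with adjusted p between 6.62e-05 and 0.0140. In Cdh5 all 12 male libraries were above all 12 female ones, a trait not counted over all genes. Kdr was at 0.28 (adjusted p = 0.114), Emcn at 0.01 (adjusted p = 0.939) and Sox17 at −0.17 (adjusted p = 0.574).

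In controls the pan-endothelial, capillary, arterial and venous lists had medians above 0 in males over females, as the members did, while the lymphatic list was below 0. Of 22 other pan-endothelial genes 15 rose and 0 fell in control males, with a median log2 fold change of 0.88. They included Cd93, a lectin-like receptor of vessels (1.09, SE 0.23, adjusted p = 0.00209), Cldn5, the endothelial claudin (1.67, SE 0.37, adjusted p = 0.00307), and the transcription factor Sox7 (1.20, SE 0.28, adjusted p = 0.00416). Of 10 capillary genes 8 rose and 1 fell. Gpihbp1, which carries lipoprotein lipase to the capillary lumen, averaged 208 ± 141 CPM in control males and 52.2 ± 16.97 CPM in control females (log2 fold change 1.66, SE 0.39, adjusted p = 0.00450). Tmem100, a bone morphogenetic protein target of endothelium, fell (−1.43, SE 0.30, adjusted p = 0.00212).

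Of 10 arterial genes 5 rose and 0 fell, among them the gap junction gene Gja4 (1.04, SE 0.24, adjusted p = 0.00447) and the receptor Notch1 (0.63, SE 0.15, adjusted p = 0.00475). In the venous list 3 of 8 rose and 1 fell. Lrg1 averaged 756 ± 512 CPM in control males and 45.1 ± 23.6 CPM in control females (log2 fold change 3.78, SE 0.41, adjusted p = 1.29e-05), while Nr2f2, the factor of venous identity, fell (−0.77, SE 0.23, adjusted p = 0.0179). The call of Nr2f2 was lost without control female replicate 1 or 3 and without control male replicate 1 or 3, with values between −0.97 and −0.60 over all 24 such fits. Of 8 lymphatic genes 0 were called by edgeR and 1 had an unadjusted p under 0.05 (39.5% of all genes), with a median of −0.41. Among 16 ligands and cofactors 7 rose and 1 fell; Svep1 rose (2.05, SE 0.30, adjusted p = 0.000151) and Esm1, a proteoglycan of tip cells, fell (−1.65, SE 0.44, adjusted p = 0.00987). Of 13 partners at the junction and in Weibel-Palade bodies 3 rose and 1 fell, with a median of 0.073.

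**Figure D4:**
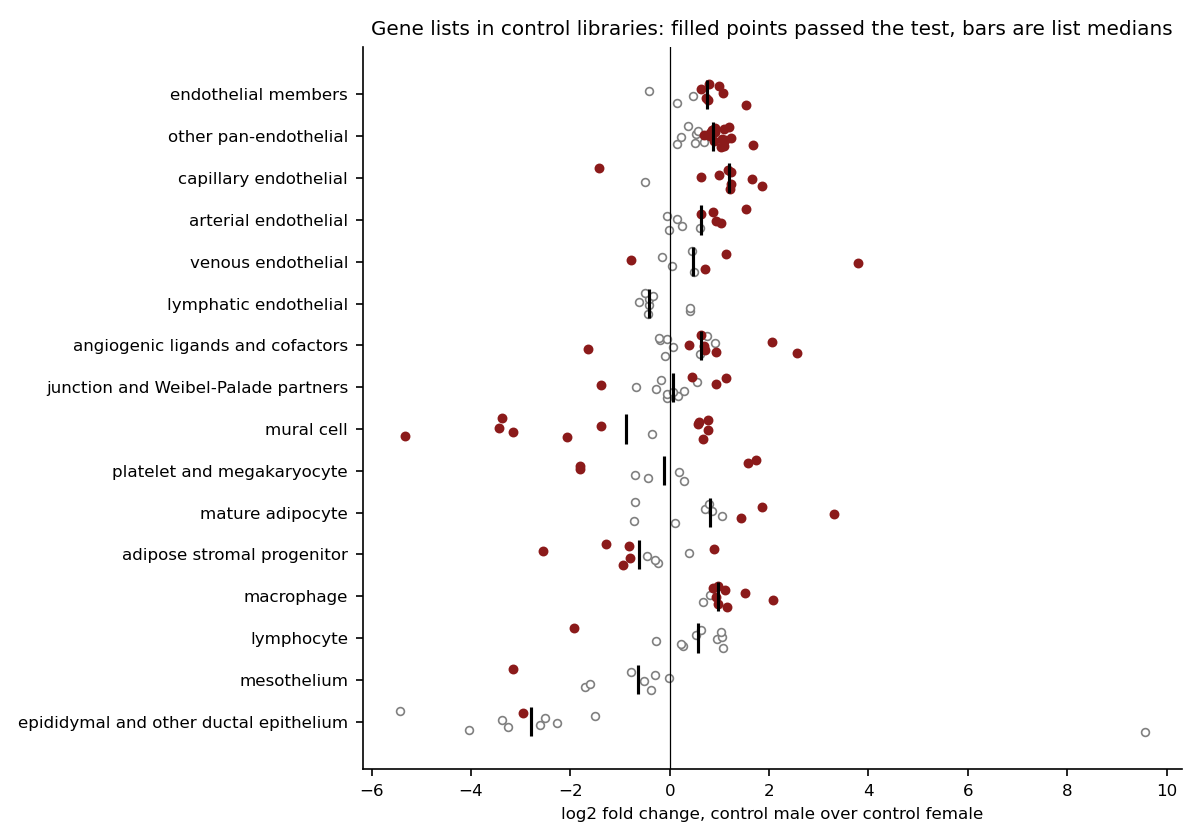
Log2 fold change in control males over control females for each gene of the 16 lists that was tested; each point is a gene, filled at an adjusted p under 0.05, and the black bar is the list median. The endothelial members have a median of 0.75, the other pan-endothelial list 0.88 and the lymphatic list −0.41, while the mural list holds 5 genes that rose and 6 that fell.

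Some genes of other cell types differed with sex as well. Across all genes tested 13.6% were called higher in control males, and 2426 of 17824 were called lower. Of 12 mural genes 5 rose and 6 fell. Those that rose were Pdgfrb, Rgs5, Kcnj8, Abcc9 and Notch3, which pericytes carry, with log2 fold changes of 0.56 to 0.77. Those that fell were the contractile genes of smooth muscle Acta2, Myh11, Tagln, Des, Cnn1 and Mylk, with log2 fold changes of −5.32 to −1.39. The remaining gene of the list, Cspg4, which pericytes also carry, was not called, and its log2 fold change was not above 0. This split of the list was made after its values were seen, and Cspg4 did not follow it. Of 10 macrophage genes 8 rose and 0 fell, and their summed level was 1314 to 1783 CPM in control males and 347 to 1066 CPM in control females. Of 10 adipocyte genes 3 rose and 0 fell, among them Lep, the gene of leptin (3.30, SE 0.45, adjusted p = 9.42e-05), and the sum was 25353 to 59397 CPM in control males and 8944 to 41680 CPM in control females. Of 10 stromal progenitor genes 1 rose and 5 fell. The 10 platelet and megakaryocyte genes, 8 of them tested, had 2 that rose and 2 that fell. This list summed to 36.2 to 136 CPM in control males and 47.8 to 68.0 CPM in control females. Of 10 lymphocyte genes 1 fell, Trac, a call lost in 4 of the 24 fits that left out 1 library, those without control female replicate 3 or control male replicate 1, 2 or 3. Of 8 mesothelial genes 1 fell, Wt1. Of the 10 ductal epithelium genes tested 1 fell, Muc1. The part of these cell types in the endothelial values was not tested.

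Members differed between batches, as did a large share of all genes. Between batch 2 and batch 1, also a comparison added after the data were seen, 7 members were called, in opposite directions. Higher in batch 2 were Flt1 (log2 fold change 0.91, SE 0.13), Kdr (0.79, SE 0.14), Tek (0.58, SE 0.11) and Cdh5 (0.47, SE 0.17), 4 of 10 members where 26% of all genes were called higher. Lower in batch 2 were Esam (−0.66, SE 0.14), Emcn (−0.55, SE 0.12) and Tie1 (−0.39, SE 0.14), 3 of 10 where 25.7% of all genes were called lower. In Flt1 the 12 libraries of batch 2 had 105 to 162 CPM with a median of 130.4, against 31.9 to 119 CPM with a median of 75.9 in batch 1. In Tie1 they had 88.0 to 168 CPM with a median of 124, against 53.4 to 289 CPM with a median of 180.0 in batch 1. Pecam1 and Vwf differed by −0.03 and −0.02 on the log2 scale (adjusted p = 0.899 and 0.879). At an unadjusted p under 0.05 there were 7 of 10 members, where 56.3% of all genes were under it.

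The difference between the sexes was larger in batch 1. In a fit with 12 groups of 2 libraries, 8 members were higher in males in batch 1, where 24.5% of all genes were called higher, and 2 were in batch 2, where 14.2% of all genes were called higher. The difference in batch 1 minus that in batch 2 was called positive for 7 of 10 members, where 12.2% of all genes were called positive. In batch 1 the 6 males had every value above the 6 females in 5 members, which held for 8.71% of all genes tested, and in batch 2 in 1 member, Cdh5, where it held for 4.25%. With the source name's batch for control female replicate 1, the sex difference in batch 1 minus that in batch 2 was called in 1 member. The share of all genes called in that fit is not given here.

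Cdh5 showed the difference in both batches. Males of batch 1 had 310 to 521 CPM with a median of 377, against 61.6 to 199 CPM with a median of 136 in females of batch 1. Males of batch 2 had 326 to 450 CPM with a median of 353, against 215 to 302 CPM with a median of 246 in females of batch 2. The log2 fold change was 1.64 (SE 0.13, adjusted p = 5.34e-07) in batch 1 and 0.55 (SE 0.13, adjusted p = 0.00710) in batch 2, and the difference between these was 1.09 (SE 0.19, adjusted p = 0.00173). Vwf was the other member called in both, at 0.74 (SE 0.14) in batch 1 and 0.44 (SE 0.14, adjusted p = 0.0309) in batch 2; its difference between batches was 0.30 (SE 0.20, adjusted p = 0.290). The batch 2 call of Vwf was lost in 9 of the 24 fits that left out 1 library, with adjusted p up to 0.0978, which left Cdh5 alone called in that batch.

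Pecam1, Esam, Kdr, Tie1, Flt1 and Tek were called between the sexes in batch 1 and not in batch 2. The difference between batches was itself called for each. Pecam1 had 418 to 626 CPM in males and 98.4 to 354 CPM in females of batch 1, but 306 to 433 CPM in males and 243 to 366 CPM in females of batch 2. Its log2 fold change was 1.15 (SE 0.16) in batch 1 and 0.17 (SE 0.16) in batch 2. Esam was at 0.91 (SE 0.11) in batch 1 and −0.01 (SE 0.11) in batch 2. Kdr was at 0.65 (SE 0.14, adjusted p = 0.00140) in batch 1 and −0.07 (SE 0.14, adjusted p = 0.753) in batch 2. The differences between batches were 0.98 for Pecam1 (adjusted p = 0.00766), 0.92 for Esam (adjusted p = 0.00192) and 0.72 for Kdr (adjusted p = 0.0182). They were 0.74 for Tie1 (adjusted p = 0.0252), 0.71 for Flt1 (adjusted p = 0.00560) and 0.62 for Tek (adjusted p = 0.0153).

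**Figure D5:**
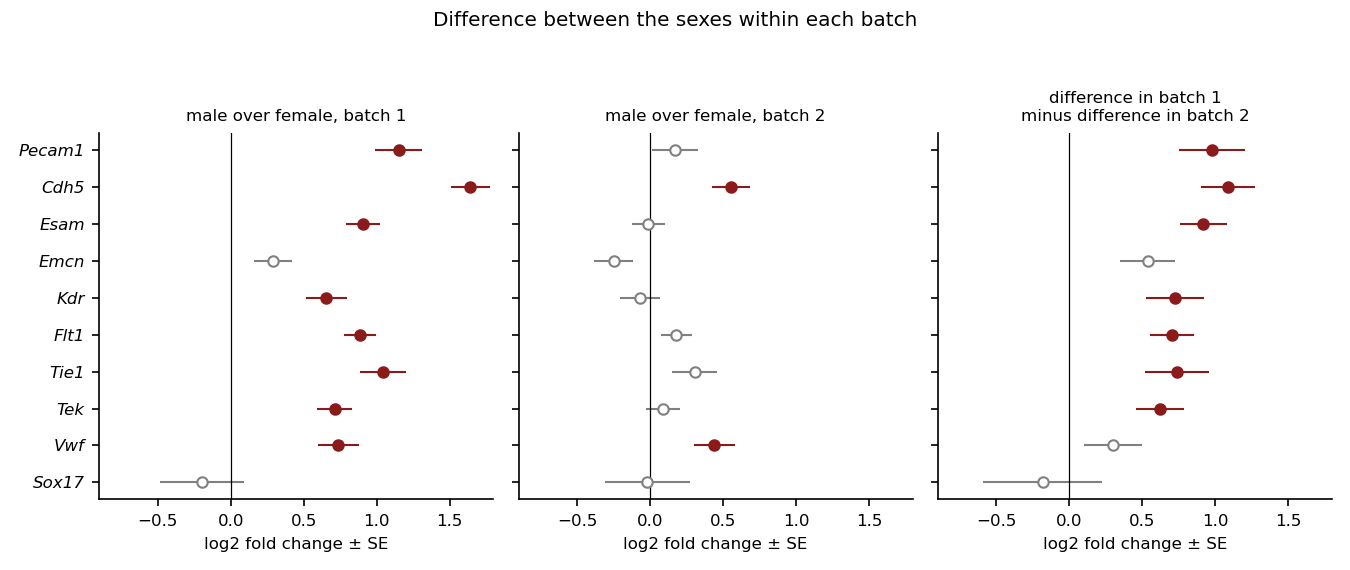
Log2 fold change of males over females with its SE, averaged over 3 genotypes, in batch 1 (left) and batch 2 (middle), and the difference between them (right); filled points have an adjusted p under 0.05. In batch 1 the filled points run from 0.65 (Kdr) to 1.64 (Cdh5), and in batch 2 only Cdh5 (0.55) and Vwf (0.44) are filled.

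Adipocyte genes moved with the members in this respect. Their summed level in batch 1 was 40552 to 59397 CPM in males and 8944 to 33781 CPM in females, and in batch 2 it was 25353 to 36813 CPM in males and 30981 to 42019 CPM in females. The sex difference in batch 1 minus that in batch 2 was called positive for 9 of 10 adipocyte genes, 16 of 22 other pan-endothelial genes, 8 of 10 capillary genes and 7 of 10 macrophage genes. The part of adipocyte content in the endothelial values was not tested.

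Finally, the members were compared library by library after group and batch means had been removed. The correlation of each member with the mean of the others over the 24 libraries was 0.94 for Tie1, 0.94 for Tek, 0.91 for Pecam1, 0.91 for Esam, 0.90 for Cdh5, 0.86 for Flt1 and 0.85 for Kdr. It was lower for Emcn (0.74) and Vwf (0.57), and −0.32 for Sox17. Without control female replicate 1 Sox17 was at 0.79, Flt1 at 0.80, Kdr at 0.79, Emcn at 0.63 and Vwf at 0.44. The others then ran from 0.88 for Cdh5 to 0.95 for Tie1. The closest pairs were Pecam1 with Tie1 (0.96), Tek with Tie1 (0.95) and Kdr with Flt1 (0.95), so that the 2 angiopoietin receptors and the 2 growth factor receptors each formed a close pair. The points share library, depth and tissue makeup, and no p is given. The part of the sex difference that varied with batch was not removed, so it is contained in these correlations.

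The 10 other genes most like the members by this measure were Robo4 (0.95), Adgrf5 (0.95), Mmrn2 (0.94), Ece1 (0.94), Adgrl4 (0.93), She (0.93), Egfl7 (0.93), Jmjd7 (0.92), Epas1 (0.92) and Cd300lg (0.92). Robo4 is a guidance receptor of endothelium, Mmrn2 a protein of the vessel matrix, Ece1 the endothelin-converting enzyme and Epas1 an oxygen-regulated transcription factor. Over whole lists the median correlation was 0.87 for 22 other pan-endothelial genes, 0.76 for 10 capillary genes and 0.76 for 10 adipocyte genes. It was 0.54 for macrophage genes, 0.53 for arterial genes, 0.43 for venous genes, −0.16 for mural genes, −0.17 for lymphatic genes and −0.56 for the 10 ductal epithelium genes tested. Over all 17814 other genes it was 3.37e-06. The values of other genes and lists are given only with control female replicate 1 included.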

How the data were processed

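Per the labels' protocols, total RNA came from whole visceral fat through a kit for lipid-rich tissue and was made into TruSeq RNA libraries. The authors deposited raw counts per gene for 27179 genes, which the submitters' processing notes credit to featureCounts and to builds named GRCm38 and mm10; the aligner and strand setting were not given in the sources used here. They also deposited log2 FPKM values per library, used here for levels between genes and for 1 alternative test. Of the counted genes 1029 had no symbol. Counts were analysed with edgeR 4.0.16 in R 4.3.3: filterByExpr by group, TMM scaling, and a robust quasi-likelihood F test in 1 model of 24 libraries, with terms for the 6 groups and for batch (17 residual degrees of freedom, common biological coefficient of variation 0.404). Adjusted p-values are Benjamini-Hochberg over all 17824 genes tested. Alternatives used DESeq2 1.42.0 and limma 3.58.1; log2 CPM used a prior count of 2. The test was checked on simulated data. The members, the 16 gene lists (182 genes) and the tests were chosen with earlier results of these data known. Named besides the members were up to 4 called genes of smallest adjusted p for each list and comparison, with a choice among these in the text, and the 10 genes with the highest correlation with the members at a mean log2 CPM of at least 1. Same-numbered libraries did not deviate together, and numbers were not used as pairs. That check used replicate numbers 1 to 4 across groups. It cannot decide on pairing, because same-numbered libraries share a batch and the sex difference that varied with batch was not removed. The titles number the libraries of a group 1 and 2 in each batch. Whether a title number names the same animal in both batches is not given and was not tested. No 2 libraries of a group agreed within sampling noise.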

Additional observations from a re-analysis of the deposited data

Results flagged for a closer look

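In 5 of the 60 sets of 4 libraries formed by 10 members and 6 groups, 1 library lay far from the other 3; chance gives about 1 in 20 such sets. In control female replicate 1 Sox17 was at 183 CPM, while the remaining control females had 29.5 to 34.0 CPM. In control male replicate 3 Cdh5 was at 521 CPM, while it was between 351 and 362 CPM in the rest of that group. Pecam1 was at 356 CPM in Tbet knockout male replicate 4, against 433 to 448 CPM in the other Tbet knockout males. Tek was at 106 CPM in Tbet knockout male replicate 2, against 86.6 to 88.5 CPM in the others of that group, and at 72.1 CPM in control male replicate 1, where its group mates had 96.98 to 100.6 CPM.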

How the results depend on the processing

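Counts of members called are compared here across settings. The shares of all genes called in these settings are not given, so a changed count may not be particular to the members. Tbet knockout females against control females gave 0 and became 1 with DESeq2, with limma on log2 FPKM, in batch 1 alone and with a batch term for each sex. Pparg knockout males against females gave 0 and became 1 with DESeq2, limma on log2 FPKM, voom with quality weights and a batch term for each sex, and 2 in batch 1 alone; leaving out 1 library gave 0 to 1. Tbet knockout males against females gave 1 and became 2 with DESeq2, limma on log2 FPKM, voom and a batch term for each sex, and 0 with no filter on low counts, no batch term, the source name's batch and batch 1 alone; leaving out 1 library gave 0 to 2. Control males against control females gave 7 and became 4 with no batch term, 2 in batch 2 alone and 2 with voom; leaving out 1 library gave 4 to 7. Over the 3 genotypes the count of 7 became 3 in batch 2 alone. The sex difference between batches was called in 1 member under the source name's batch, against 7, and males against females within batch 2 in 1, against 2; leaving out 1 library gave 1 to 2 there. With a replicate block in place of batch, control males against females gave 7 and the mean over genotypes 7. The Tbet knockout comparison of sexes gave 1, so the block changed no count. Same-numbered libraries had a mean correlation of −0.0725, and 0 of 24 libraries were closest to their own number. The sex difference that varied with batch was left in these correlations, so they cannot decide on pairing. Signs turned, with a call in at least 1 of the settings compared, for Sox17 in controls (0.87 without the 9 libraries rich in ductal epithelium; −0.66 to 0.61 when 1 library was left out), for Sox17 over the genotypes (0.38 without those 9) and in batch 1 (−0.46 to 0.42 when 1 was left out), and in batch 2 alone for Esam over the genotypes (−0.0076), Jam3 in controls (0.082) and Lipe over the genotypes (−0.088). The cause was not tested. The batch term for each sex and the 9 libraries were chosen after the data were seen. Of 9922 single-gene values over 282 results, 9104 kept direction and side of the threshold, 596 lost the call, 34 gained it, 7 turned sign with a call and 181 turned sign uncalled in both settings, among them Sox17 in Tbet knockout females (0.63) and in Pparg knockout females (0.11) without control female replicate 1. Each group held 4 libraries, which limits what can be detected.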
